A study of Homo sapiens with 24 samples.

Results

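The comparison described here is that of U251 cells treated for 24 h with G-1 at its IC50 with U251 cells given the vehicle for as long. U251 is an established human glioblastoma (GBM) line, and G-1 is a synthetic agonist of GPER, the G protein-coupled estrogen receptor. It rests on 8 of the 24 arrays of the series, chosen by their titles: 4 arrays of G-1 IC50 and 4 arrays of DMSO, all at 24 h. The other arrays hold the same 2 treatments at 72 h and a higher dose of G-1, 1 µM, at both durations. All cells were grown in phenol red-free DMEM and were deprived of steroid hormones in charcoal-stripped serum before treatment, so that the control cells were steroid-deprived as well. The control groups received DMSO, at 0.1% in the labels and at a lower concentration in the study's methods. The IC50 dose is the one that the study took for this line from an MTT assay of metabolically active cells after 72 h of G-1. No replicate used another line or clone. The 4 arrays of a group stand for 4 independent cultures of this line. For the G-1 IC50 arrays at 24 h, a duration entry of the labels reads 72 h whereas titles and source names read 24 h, and the latter were followed.

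GPER is a membrane receptor that couples estrogen to cyclic AMP and ERK signaling. Because much of this report concerns lipid genes, the background is as follows. SREBP-1 and SREBP-2, encoded by *SREBF1* and *SREBF2*, are membrane-bound transcription factors that are cut and sent to the nucleus when sterols are low, where SREBP-1 favors fatty acid synthesis and SREBP-2 cholesterol synthesis and uptake. LXR receptors sense oxysterols and drive sterol efflux as well as *SREBF1* itself, and PPAR receptors sense fatty acids and drive their oxidation and storage. Glioblastoma cells are known to depend on cholesterol taken up from outside the cell.

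At 24 h, G-1 IC50 changed few genes, and the largest group among them belongs to lipid metabolism. At an adjusted p under 0.05 in limma and a fold change beyond 2 in either direction, 10 genes of 17927 tested were called, or 0.0558%. All 10 were higher under G-1: *SREBF1*, *FASN*, *STARD4*, *ANGPTL4*, *TF*, *SLC7A5*, *LY6K*, *LY9*, *IDI2-AS1* and 1 probe without a gene symbol, A_21_P0014880. The DMSO signals of *ANGPTL4* and *IDI2-AS1* were at background, so that their fitted folds are not exact, and for *IDI2-AS1* the bound given further on is under 2-fold. No gene was called lower (0.0%), although 4 probes were lower by more than 2-fold at an unadjusted p under 0.05 in limma. Without the fold threshold, 38 genes (0.212%) passed the adjusted p, 33 of them higher (0.184%) and 5 lower (0.0279%). When each array was scaled to its median instead of its 75th percentile, this split was 27 higher and 0 lower. The counts with and without the fold threshold were 6 and 22 without DMSO replicate 4, 4 and 26 without G-1 replicate 3, and 9 and 24 without G-1 replicate 2. In a fit of the 8 arrays alone, which has fewer arrays to estimate the spread, they were 2 and 6.

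**Figure D1:**
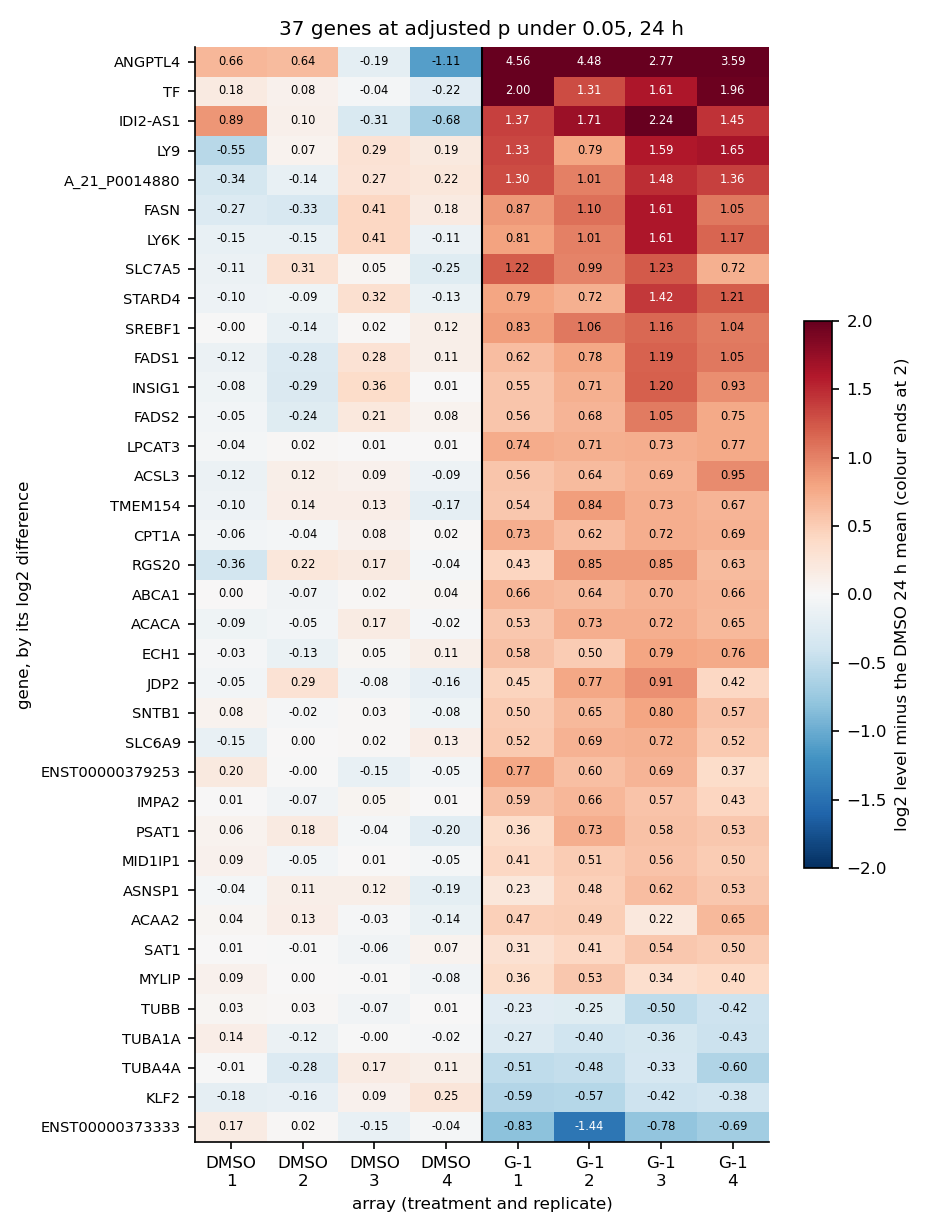
Log2 level of each of 37 of the 38 genes at adjusted p under 0.05 (rows, ordered by their difference) on each of the 8 arrays (columns), after subtracting the gene's mean over the 4 DMSO arrays. Red is above and blue below the DMSO mean, the colour ends at 2 and each cell prints its value. In all 37 genes the 4 G-1 arrays lie on 1 side of the 4 DMSO arrays.

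The groups did not overlap in any of the 38, as the plot by array shows for 37 of them. Since the 38 were chosen by p on these arrays, this separation is no further support. Of the 14235 genes with a symbol, 393 (2.76%) had groups that did not overlap. Under random labels, 4 against 4 arrays separate with a probability of 0.0286, close to that share. Of these 38, 31 higher genes and 4 lower genes carry a symbol. Of the 31 higher genes, 13 are on the lists for SREBP control and sterol uptake, LXR targets, and fatty acid synthesis, and 18 are on any of the lists examined. Of the 4 lower genes, 3 encode tubulins.

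The rest of the transcriptome moved little. Over the 14235 genes, the median log2 difference was −0.01 with an SD of 0.16, and 91.5% of genes lay within 0.25 of 0. Only 24 genes differed by more than 2-fold, 20 of them higher and 4 lower. The arrays correlated at 0.9904 to 0.9957 within groups and at 0.9885 to 0.9953 between groups across probes. On the 8 arrays, 41.5% to 44.5% of the spots were well above background and none was saturated. All 8 were scanned in the same session but on 2 slides. The first held 3 DMSO and 2 G-1 arrays and the second 1 DMSO and 2 G-1 arrays. Differences within each slide are given for some genes and lists, not for every one in which they diverge. A change in all cells and a larger one in some of them cannot be told apart in RNA from whole cultures.

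**Figure D2:**
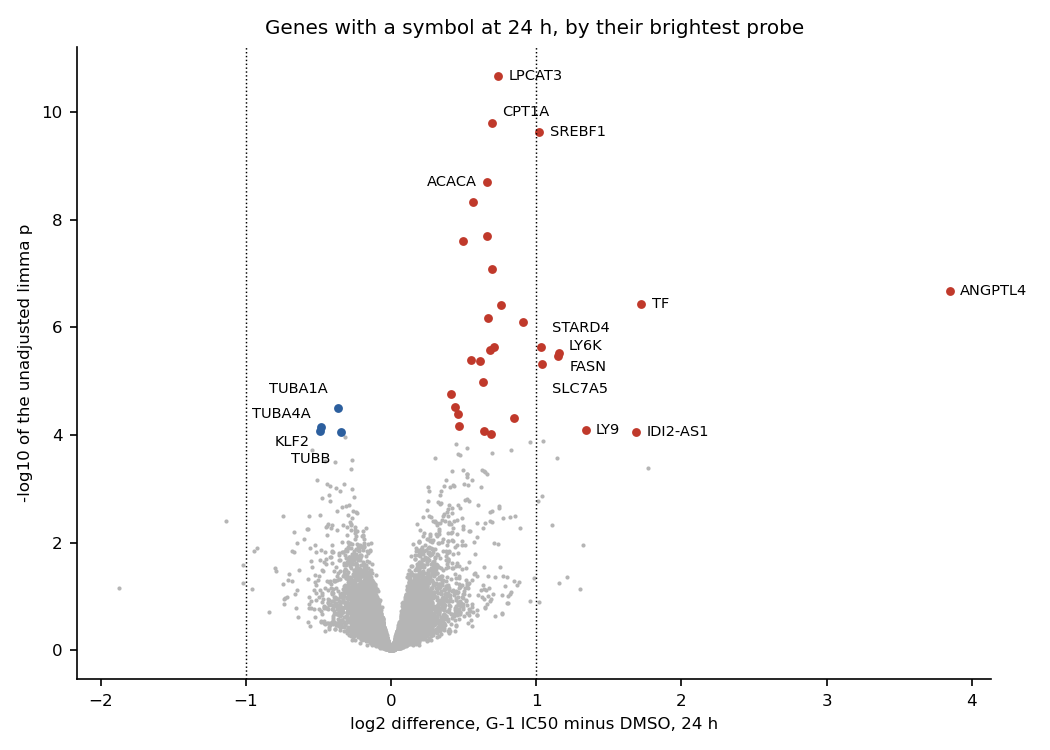
Log2 difference between G-1 IC50 and DMSO at 24 h (x axis) against −log10 of the unadjusted limma p (y axis) for the 14235 genes with a symbol, each by its brightest probe. Red points are the 31 higher and blue points the 4 lower genes at adjusted p under 0.05, grey points are the others, and the dotted lines mark a 2-fold change. *ANGPTL4* lies alone at 3.85, whereas *LPCAT3*, *CPT1A* and *SREBF1* have the smallest p.

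*ANGPTL4*, a secreted inhibitor of lipoprotein lipase and a classical PPAR target, had the largest difference. Levels are given throughout as the log2 of the array signal minus the 75th percentile of the same array, and can be compared between arrays but not between genes. The *ANGPTL4* probe was at −3.21, −3.23, −4.06 and −4.98 on the DMSO arrays, not well above background on any of them. On the G-1 arrays it was at 0.69, 0.60, −1.10 and −0.28, well above background on all 4. Every G-1 array was thus above every DMSO array, by a log2 difference of 3.85 (SE 0.51, limma adjusted p = 0.000444). Since the DMSO level is only a bound, *ANGPTL4* is reported as at least 9.37-fold higher, taking for each DMSO array the higher of its own signal and the lowest signal among probes well above background. With a normexp background correction, which lifts dim signals, the difference was 1.36 and did not pass (adjusted p = 0.0783).

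Among the genes of sterol sensing and uptake, *SREBF1*, *STARD4* and *INSIG1* rose. *SREBF1* read 7.56, 7.42, 7.58 and 7.68 under DMSO and 8.39, 8.62, 8.72 and 8.60 under G-1 (7.56 ± 0.11 and 8.58 ± 0.14, mean ± SD, n = 4). It was 2.03-fold higher by this probe (log2 difference 1.02, SE 0.09, limma adjusted p = 1.78e-06), while a second, dimmer *SREBF1* probe differed by 0.16 and its groups overlapped (adjusted p = 0.998). *STARD4*, which carries cholesterol between membranes, read 1.49, 1.50, 1.90 and 1.46 under DMSO and 2.38, 2.30, 3.01 and 2.80 under G-1. It was 2.05-fold higher (limma adjusted p = 0.00297). The arrays of both groups stayed apart for both of these genes.

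*INSIG1*, which holds SREBPs back in the endoplasmic reticulum and is itself an SREBP target, read 5.94, 5.73, 6.38 and 6.03 under DMSO and 6.57, 6.73, 7.22 and 6.95 under G-1. Its 1.80-fold rise passed the test (limma adjusted p = 0.0332) but lost its call without any 1 of DMSO replicates 1, 2 and 4 and G-1 replicates 2, 3 and 4 (adjusted p up to 0.191). *SREBF2* differed by 0.30 without passing (adjusted p = 0.0998), although its groups did not overlap. Of the 13 tested members of the list for SREBP control and sterol uptake, 4 rose and none fell, against 0.218% of genes with a symbol higher and 0.0281% lower. The median of the list was 0.30, against −0.01 over all genes, and was 0.20 without DMSO replicate 2 and 0.19 with normexp or without a filter on dim probes. *SCAP*, *MBTPS1* and *MBTPS2*, which escort and cut the SREBPs, differed by 0.06, −0.01 and −0.04.

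Fatty acid synthesis showed the highest count among the lists. *FASN*, the fatty acid synthase, read 6.09, 6.03, 6.77 and 6.53 under DMSO and 7.22, 7.45, 7.97 and 7.41 under G-1 (6.35 ± 0.36 and 7.51 ± 0.32, n = 4). It was 2.23-fold higher (log2 difference 1.16, SE 0.18, limma adjusted p = 0.00337). Replicate 3 was the highest array of its group under both treatments, yet the highest DMSO array remained below the lowest G-1 array. *ACACA*, the acetyl-CoA carboxylase that commits carbon to this pathway, read 6.33, 6.37, 6.59 and 6.40 under DMSO and 6.96, 7.16, 7.14 and 7.08 under G-1. Its 1.58-fold rise had a limma adjusted p of 1.16e-05, and a second *ACACA* probe gave 0.64 (adjusted p = 0.0205). *MID1IP1*, which favors the polymerization of acetyl-CoA carboxylase, rose from 4.60 ± 0.07 to 5.09 ± 0.06 (limma adjusted p = 7.12e-05).

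The desaturases of polyunsaturated fatty acids rose as well. *FADS1* read 6.08, 5.92, 6.48 and 6.31 under DMSO and 6.82, 6.97, 7.38 and 7.25 under G-1, a 1.88-fold rise (limma adjusted p = 0.00116). *FADS2* rose 1.69-fold, from 6.95, 6.76, 7.21 and 7.08 to 7.56, 7.68, 8.05 and 7.75 (limma adjusted p = 0.000685), and *ACSL3*, which activates fatty acids to acyl-CoA for lipid droplets and phospholipids, rose 1.64-fold from 2.46 ± 0.12 to 3.17 ± 0.17 (limma adjusted p = 0.00297). The *ACSL3* call was lost when arrays were scaled to their median. Unlike these genes, *SCD*, the desaturase of saturated fatty acids, differed by −0.25 without passing (adjusted p = 0.998). *ACLY* and *ACSS2*, which supply acetyl-CoA, differed by 0.49 and 0.54 without passing (adjusted p = 0.746 and 0.576) although their groups did not overlap. Of the 17 tested members of the list, 6 rose (against 0.218% of genes with a symbol), none fell and 14 lay above 0, with a median of 0.49. Because the lists were drawn with earlier results of the same arrays known, such counts are descriptions.

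**Figure D3:**
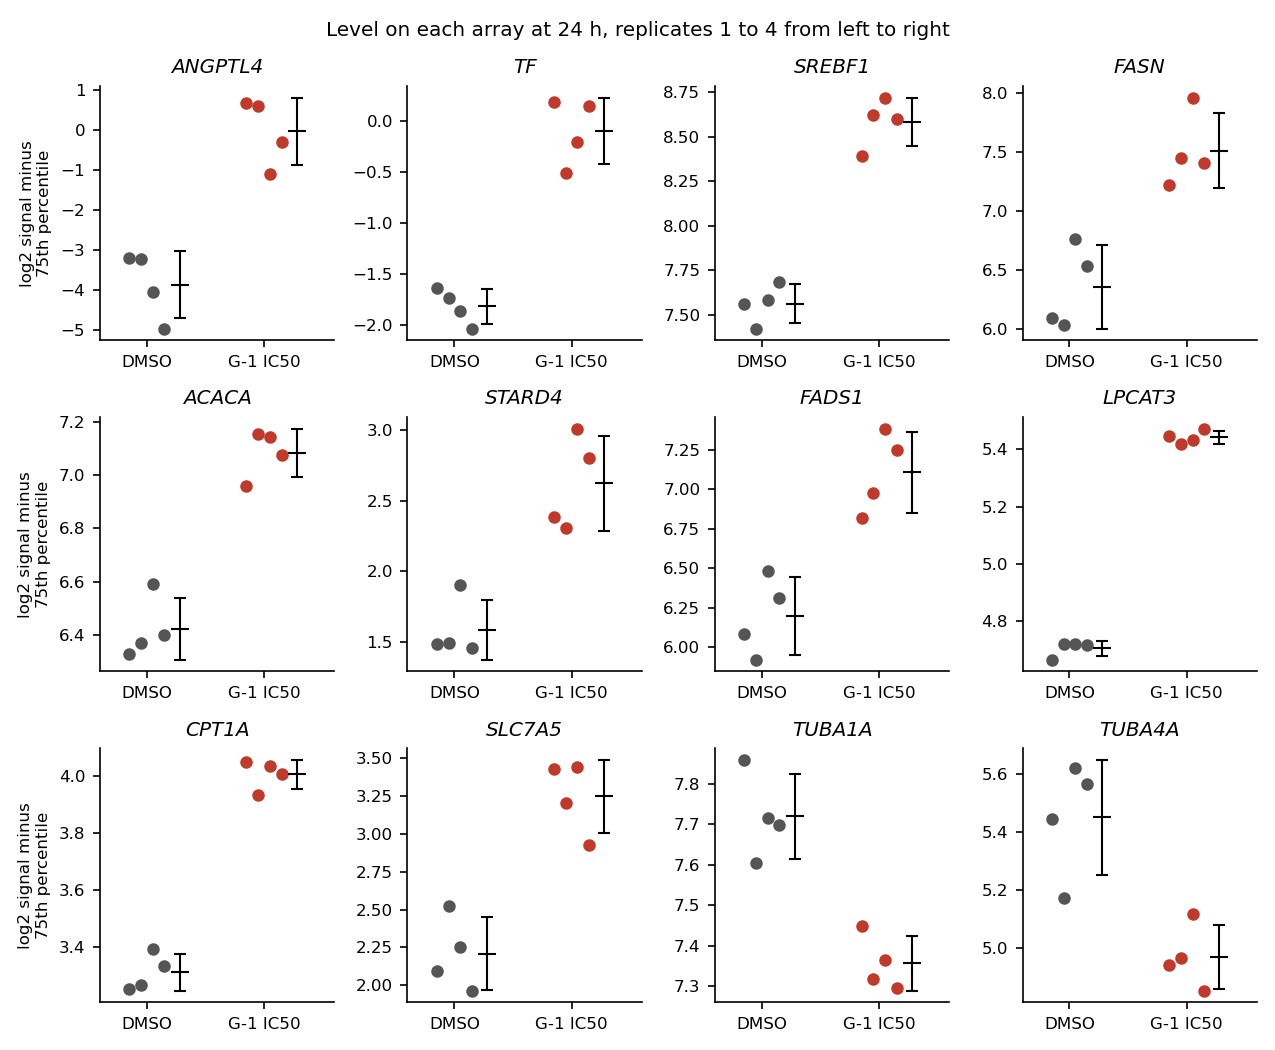
Log2 level (array signal minus the array's 75th percentile) of 12 genes on each of the 4 DMSO and 4 G-1 IC50 arrays at 24 h; each point is 1 array, and bar and whiskers give mean ± SD. The groups do not overlap in any of the 12, and *TUBA1A* and *TUBA4A* are the ones that lie lower under G-1.

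The promoters of *INSIG1*, *STARD4* and *ABCA1* are shown here because SREBPs can bind E-boxes as well as sterol regulatory elements, often next to CCAAT boxes bound by NF-Y, and because these 3 promoters hold such letters near the start. Promoter sequences were taken from RefSeq (GRCh38.p14), in which 26 of the 38 genes and 11 of the 13 lipid genes had an entry, and the 250 bases before each start were searched on both strands. Only CACGTG and CCAAT were searched, not sterol regulatory elements, and capitals mark the matches.
*INSIG1* (chr7:155297628-155297877, plus strand) holds the E-box CACGTG at 55 to 50 bases before the start and a CCAAT box on the opposite strand.
INSIG1: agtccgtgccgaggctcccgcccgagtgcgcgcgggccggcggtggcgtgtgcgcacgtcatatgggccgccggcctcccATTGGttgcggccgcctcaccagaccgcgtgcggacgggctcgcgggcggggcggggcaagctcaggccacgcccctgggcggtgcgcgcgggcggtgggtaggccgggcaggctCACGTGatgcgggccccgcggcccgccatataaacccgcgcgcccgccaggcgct
*STARD4* (chr5:111512536-111512785, minus strand) holds CCAAT boxes at 161 to 157 and at 130 to 126 bases before its start.
STARD4: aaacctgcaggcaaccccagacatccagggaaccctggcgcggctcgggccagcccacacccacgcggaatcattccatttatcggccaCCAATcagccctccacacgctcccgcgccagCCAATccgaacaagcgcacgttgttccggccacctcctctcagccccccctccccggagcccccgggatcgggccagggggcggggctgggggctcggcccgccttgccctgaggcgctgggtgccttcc
*ABCA1* (chr9:104928156-104928405, minus strand), an LXR target, holds an E-box at 147 to 142 bases before its start.
ABCA1: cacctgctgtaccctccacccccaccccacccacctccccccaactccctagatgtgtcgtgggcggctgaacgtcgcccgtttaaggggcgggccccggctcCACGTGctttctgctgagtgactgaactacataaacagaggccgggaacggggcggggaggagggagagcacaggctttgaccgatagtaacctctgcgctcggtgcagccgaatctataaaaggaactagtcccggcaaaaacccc
CACGTG was found in 4 of the 26 genes with an entry (*ABCA1*, *INSIG1*, *SLC7A5* and *TUBB*) and in 6.34% of all promoters. CCAAT was found in 12 of the 26, 7 of them lipid genes, and in 32.0% of all promoters. These matches are letters in a short window and do not show binding.

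The enzymes of cholesterol synthesis, from acetyl-CoA to cholesterol, all lay above 0, but no single one passed the test without a replicate block. Of 20 members tested, 0 passed the limma adjusted p, 15 had an unadjusted p under 0.05, and 20 were higher, with a median log2 difference of 0.40 (0.47 on the first slide and 0.48 on the second). In 5 of the 20 the groups did not overlap, against 1.58% of all genes higher without overlap. *LSS*, the lanosterol synthase, read 5.82, 5.78, 6.54 and 6.34 under DMSO and 6.77, 6.59, 7.33 and 7.09 under G-1 (log2 difference 0.83, adjusted p = 0.0804). *MVD*, which makes isopentenyl diphosphate, read 1.44, 1.17, 2.36 and 1.74 under DMSO and 2.42, 2.22, 3.52 and 2.72 under G-1, with the largest difference of the list, 1.04, and overlapping groups (adjusted p = 0.281). Replicate 3 was the highest array of both groups for both enzymes, and the spread between arrays widened the error. With the replicate number as a block, *LSS*, *MVD*, *FDPS*, *FDFT1* and *DHCR7* did pass. That fit is given further on. The numbers were not taken as pairs, although this list followed them in both groups. The missing calls thus do not show a lack of effect. *PMVK*, the phosphomevalonate kinase, differed by 0.05, the smallest of the list. By array, the median of the list relative to the DMSO means was 0.17, 0.29, 0.67 and 0.51 on the G-1 arrays and −0.15, −0.18, 0.24 and 0.04 on the DMSO arrays.

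Among LXR targets, 3 of 9 tested members rose, against 0.218% of genes with a symbol, and none fell. *LPCAT3*, which inserts polyunsaturated chains into phospholipids, had the smallest p of all genes: 4.67, 4.72, 4.72 and 4.72 under DMSO against 5.45, 5.42, 5.43 and 5.47 under G-1 (1.66-fold, SE 0.06 on the log2 scale, limma adjusted p = 4.84e-07). *ABCA1*, the pump that exports cholesterol, read 4.75, 4.68, 4.77 and 4.79 under DMSO and 5.41, 5.39, 5.44 and 5.41 under G-1. Its difference was 0.66 by this probe (limma adjusted p = 0.00108) and 0.66 by another (adjusted p = 0.000233). *MYLIP*, a ubiquitin ligase that lowers lipoprotein uptake, rose 1.33-fold (limma adjusted p = 0.0155). That last call was lost without DMSO replicate 3, DMSO replicate 4 or G-1 replicate 2 (adjusted p up to 0.0888). The list median was 0.14 over its 9 tested members, 0.01 without DMSO replicate 2 and 0.22 without G-1 replicate 4.

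*CPT1A*, *ECH1* and *ACAA2*, which act in fatty acid oxidation, rose, but *ECH1* and *ACAA2* are on no list and are named because they passed the test. *CPT1A*, which carries long-chain fatty acids into mitochondria, read 3.25, 3.27, 3.39 and 3.34 under DMSO and 4.05, 3.93, 4.03 and 4.01 under G-1 (1.62-fold, SE 0.06 on the log2 scale, limma adjusted p = 1.78e-06). *ECH1*, an auxiliary enzyme of β-oxidation, rose 1.58-fold from 4.01 ± 0.10 to 4.67 ± 0.14 (limma adjusted p = 6.58e-05). *ACAA2*, the mitochondrial thiolase that ends each turn of β-oxidation, rose 1.37-fold (limma adjusted p = 0.0287), and lost its call on leaving out any 1 of 6 arrays (adjusted p up to 0.16). *PDK4*, which restrains pyruvate oxidation and is a PPAR target, read −1.76, −1.36, −1.71 and −1.62 under DMSO and −0.72, −0.48, −0.97 and −0.09 under G-1. Its groups did not overlap and its log2 difference was 1.05, but it did not pass (SE 0.22, adjusted p = 0.0639). Of the 16 tested members of the PPAR list, *ANGPTL4* and *CPT1A* rose (against 0.218% of genes with a symbol) and none fell. The *ANGPTL4* probe passed the filter only through arrays treated with G-1, so that its place in this count is no support for the list. The list median was 0.15, which was 0.23 with arrays scaled to their median and 0.05 without a filter on dim probes. *PPARA* and *PPARD*, encoding receptors, differed by −0.11 and 0.00, and *PPARG* and *PLIN2*, a lipid droplet coat, were not tested because no probe passed the filter.

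Of the genes of amino acid supply, *SLC7A5* and *PSAT1* rose. *SLC7A5*, the light chain of the leucine transporter LAT1, read 2.10, 2.52, 2.25 and 1.96 under DMSO and 3.43, 3.20, 3.44 and 2.93 under G-1. It was 2.05-fold higher (log2 difference 1.04, SE 0.17, limma adjusted p = 0.00463), with a difference of 1.22 within the first slide and 0.65 within the second. *PSAT1*, an enzyme of serine synthesis, rose 1.47-fold, from 3.46, 3.58, 3.36 and 3.19 to 3.76, 4.13, 3.98 and 3.93 (limma adjusted p = 0.00417). Both are on the list of ATF4 targets and amino acid supply, of which 2 of 21 tested members rose (against 0.218% of genes with a symbol), none fell and 19 lay above 0, with a median of 0.26 (0.31 on the first slide and 0.16 on the second). *ATF4* itself, the transcription factor that drives this program, differed by 0.26 (adjusted p = 0.452), *CHAC1* by 0.53, *TRIB3* by 0.33, *ASNS* by 0.30 and *DDIT3* by 0.07, none of them passing. Outside the list, the glycine transporter gene *SLC6A9* rose 1.53-fold (limma adjusted p = 0.0042). *ASNSP1*, a pseudogene of the asparagine synthetase gene whose probe may share signal with its parent, rose 1.38-fold (limma adjusted p = 0.0432). Its call was lost without any 1 of 6 arrays (adjusted p up to 0.223). A second *ASNSP1* probe gave 0.33 without passing (adjusted p = 0.328).

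*TF*, encoding transferrin, the carrier of iron, had the largest difference among genes well above background on all 8 arrays. It read −1.63, −1.74, −1.86 and −2.04 under DMSO and 0.18, −0.51, −0.20 and 0.15 under G-1, a 3.30-fold rise (log2 difference 1.72, SE 0.24, limma adjusted p = 0.000685). It stood alone among the 12 tested genes of iron handling, whose median was 0.06. *TFRC*, the transferrin receptor, differed by 0.09 (adjusted p = 0.998). With normexp the *TF* difference was 0.89 and still passed (adjusted p = 3.31e-05).

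Other genes that rose fall into no list. *LY6K*, a GPI-anchored protein of the LY6 family, read −2.28, −2.28, −1.71 and −2.24 under DMSO and −1.32, −1.12, −0.52 and −0.96 under G-1 (2.22-fold, limma adjusted p = 0.00378), a log2 difference of 1.15 that was 0.60 with normexp. *LY9*, an immune cell surface receptor of the SLAM family, read −0.33, 0.30, 0.52 and 0.42 under DMSO and 1.56, 1.01, 1.82 and 1.87 under G-1 (2.53-fold, limma adjusted p = 0.0474), and lost its call on leaving out any 1 of 7 arrays (adjusted p up to 0.236). *IDI2-AS1*, a long non-coding RNA antisense to *IDI2*, was not well above background on any DMSO array and was so on all 4 G-1 arrays. It is reported as at least 1.41-fold higher (limma adjusted p = 0.0478), a call lost with the slide as a block (adjusted p = 0.0701), without a filter on dim probes (adjusted p = 0.168) and without any 1 of 7 arrays (adjusted p up to 0.253). With normexp its difference was 0.25 (adjusted p = 0.552), against 1.69 without that correction, and its probe passed the filter through arrays treated with G-1. *IMPA2*, an inositol monophosphatase, rose 1.48-fold (limma adjusted p = 2.16e-05), with 0.56 by this probe and 0.58 by another (adjusted p = 0.00108).

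*TMEM154*, a transmembrane protein, rose 1.62-fold from 0.69, 0.92, 0.92 and 0.61 to 1.32, 1.63, 1.51 and 1.46 (limma adjusted p = 0.000213). *SNTB1*, a syntrophin that links receptors to the dystrophin complex, rose 1.55-fold (limma adjusted p = 0.00965), a call lost without DMSO replicate 4 (adjusted p = 0.0571) or G-1 replicate 3 (adjusted p = 0.0603). *SAT1*, the enzyme that starts polyamine breakdown, rose 1.36-fold (limma adjusted p = 0.0224), *RGS20*, a regulator of G protein signaling, rose 1.61-fold (adjusted p = 0.0496) and *JDP2*, a repressor of AP-1, rose 1.56-fold (adjusted p = 0.0474). These last 3 calls were lost on leaving out any 1 of 7, 6 and 5 arrays. For *JDP2*, the difference was 0.94 within the first slide and 0.15 within the second, and it did not pass with the slide as a block (adjusted p = 0.0517) or with normexp (0.35, adjusted p = 0.147). Of the probes without a symbol, A_21_P0014880 read 0.47, 0.67, 1.08 and 1.04 under DMSO and 2.12, 1.83, 2.30 and 2.18 under G-1 (2.44-fold, limma adjusted p = 3.54e-05). ENST00000379253 rose by 0.61 (limma adjusted p = 0.0161).

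Of the genes with a symbol that were called lower, most encode tubulins. *TUBA4A* read 5.44, 5.17, 5.62 and 5.56 under DMSO and 4.94, 4.97, 5.12 and 4.85 under G-1, 1.40-fold lower (log2 difference −0.48, SE 0.10, limma adjusted p = 0.0432), and its other 2 probes gave −0.44 and −0.37 (adjusted p = 0.0205 and 0.0474). *TUBA1A* read 7.86, 7.61, 7.72 and 7.70 under DMSO and 7.45, 7.32, 7.36 and 7.29 under G-1, 1.29-fold lower (limma adjusted p = 0.0226). *TUBB* read between 6.92 and 7.02 under DMSO and 6.76, 6.74, 6.49 and 6.57 under G-1, 1.27-fold lower (limma adjusted p = 0.0478), while its other probes gave −0.43 and −0.24 without passing. These genes encode the α- and β-tubulin subunits of microtubules, and because the family is close in sequence its probes may share signal.

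Of the 11 genes on the tubulin list, all tested, 3 fell, none rose and all 11 lay below 0 (from −0.48 to −0.17). Their median was −0.29, and it was −0.30 on the first slide and −0.26 on the second. *TUBB8* was tested as well but is not on the list, so that these counts do not cover the whole family. In 6 of the 11 the groups did not overlap, against 1.18% of all genes lower without overlap. By array, the list median relative to the DMSO means was −0.20, −0.26, −0.26 and −0.42 on the G-1 arrays and between −0.03 and 0.03 on the DMSO arrays. All 11 also lay below 0 with quantile normalization, with the array median, with normexp and in the deposited table. With the array median, which raised the median of all genes by 0.09, the 3 differences were −0.40, −0.28 and −0.26 and none passed (adjusted p = 0.159 for *TUBA4A*, 0.691 for *TUBA1A* and 0.852 for *TUBB*). By their brightest probes, *TUBA4A* and *TUBA1A* also did not pass on leaving out any 1 of 6 arrays (adjusted p up to 0.185 and 0.143). *TUBB* did not pass on leaving out any 1 of 7 (adjusted p up to 0.256). The other *TUBA4A* probes were not followed with an array left out.

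*KLF2*, a Krüppel-like transcription factor, was the other gene with a symbol that fell. It read 3.62, 3.64, 3.89 and 4.05 under DMSO and 3.22, 3.23, 3.38 and 3.42 under G-1, 1.40-fold lower (limma adjusted p = 0.0474), which did not pass with the slide as a block (adjusted p = 0.0701) or without any 1 of 6 arrays (adjusted p up to 0.205). ENST00000373333 was lower by −0.93 (limma adjusted p = 0.0161) but well above background on 1 of the 4 G-1 arrays. With normexp its difference was −0.22 (adjusted p = 0.779).

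No member of the lists for the receptor, cyclic AMP and ERK, through which GPER is known to signal, passed the test. *GPER1*, encoding the receptor that G-1 activates, was measured on all 8 arrays and differed by 0.25 (adjusted p = 0.812), with overlapping groups, whereas the nuclear receptors *ESR1*, *ESR2* and *PGR* were well above background on 0 of 8. Among 10 cyclic AMP response genes tested by limma, 0 passed, 0 had an unadjusted p under 0.05 and the median was −0.00. Among 18 ERK response genes, 0 passed, 1 had an unadjusted p under 0.05 and the median was 0.09 (0.27 on the first slide and −0.16 on the second), with *EGR1*, *FOS* and *ETV5* at 0.37, 0.37 and 0.36. Of 21 genes of mitotic entry and spindle checkpoint, 0 passed, 0 had an unadjusted p under 0.05 and 19 lay below 0. The median of these 21 was −0.08 (−0.01 on the first slide and −0.32 on the second). *AURKA* and *BORA*, which drive mitotic entry, differed by −0.04 and −0.02, and *PLK1* by 0.11. The 17 genes of DNA replication, 13 p53 targets and 15 ribosome biogenesis genes had medians of −0.05, −0.02 and −0.01 with 0 passing and 0, 1 and 0 at an unadjusted p under 0.05. For DNA replication, the median was 0.07 on the first slide and −0.20 on the second.

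**Figure D4:**
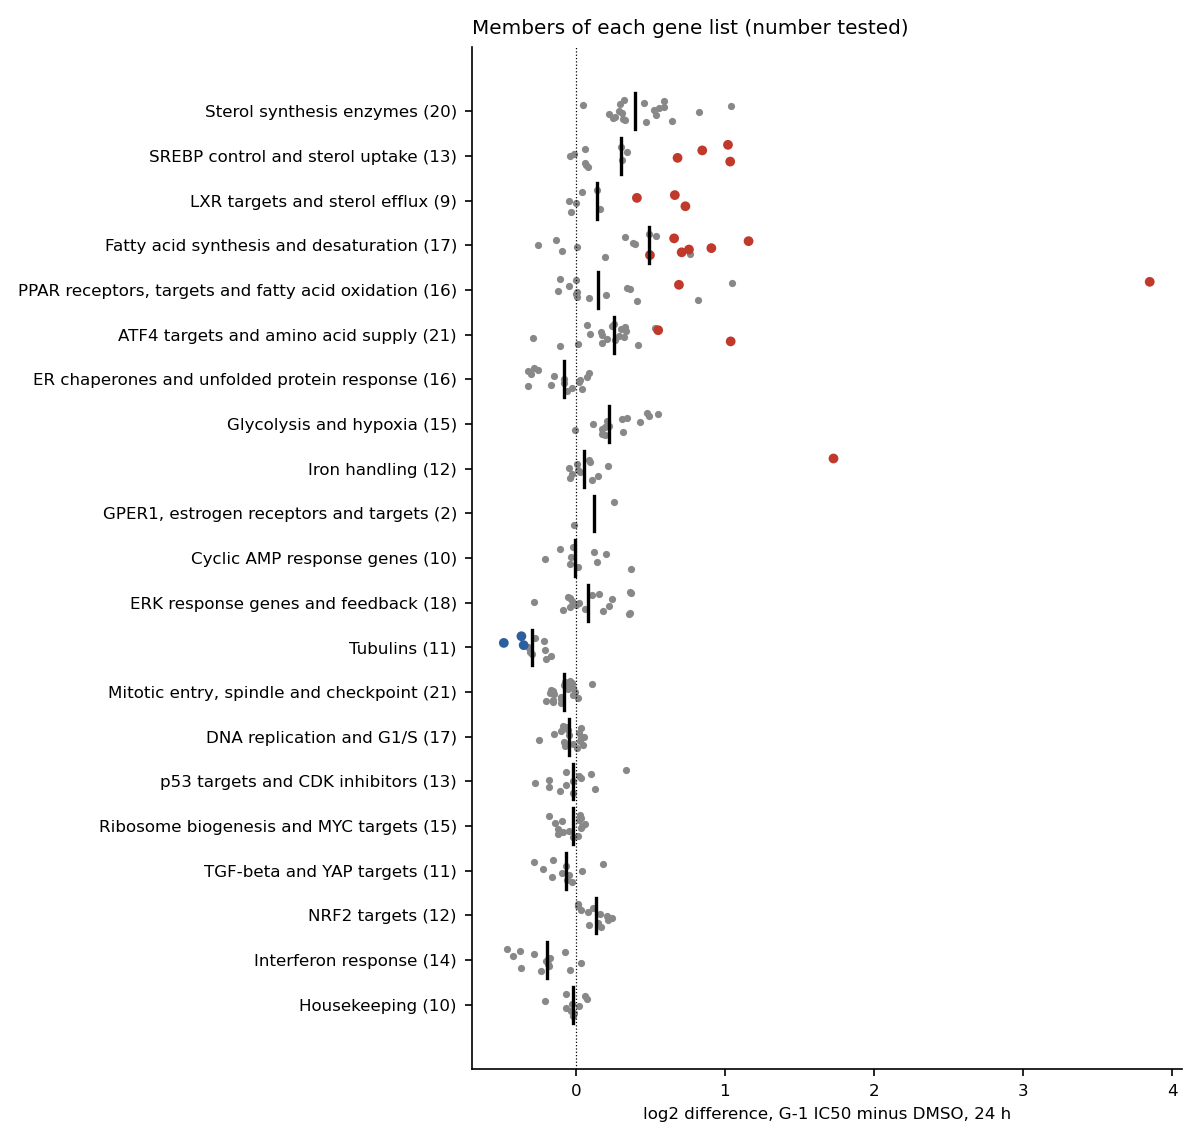
Log2 difference (G-1 IC50 minus DMSO, 24 h) of every tested member of 21 gene lists, 1 point per gene by its brightest probe, with the number tested in parentheses and a black bar at the list's median. Red and blue points are higher and lower genes at adjusted p under 0.05; the red points lie in the SREBP, LXR, fatty acid, PPAR, ATF4 and iron lists and the blue points in the tubulin list, at a tubulin median of −0.29 and a fatty acid synthesis median of 0.49.

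Endoplasmic reticulum chaperones lay mostly below 0. Of 16 tested, 0 passed in limma, 6 were lower at an unadjusted p under 0.05 and 3 were lower without overlap (against 1.18% of all genes), with a median of −0.08. *MANF* and *CALR* both differed by −0.32 and *HSPA5*, the chaperone BiP, by −0.28 (adjusted p = 0.055 for *MANF*). The median of this list was 0.01 when arrays were scaled to their median. Of 12 NRF2 targets, 12 lay above 0 with a median of 0.13, 0 passed and 2 had an unadjusted p under 0.05, and with normexp 11 of the 12 lay above 0.

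The identity of the line was checked against markers. Of 16 astroglial and glioma markers, 13 were well above background on all 8 arrays, whereas *OLIG2*, *AQP4* and *ALDH1L1* were so on none. Of 6 microglia and macrophage markers, *CSF1R* was detected and 5, *PTPRC* and *AIF1* among them, were not. Markers of other cell types were measured in part. Of 6 neuron markers, *RBFOX3*, *SNAP25*, *SLC17A7*, *GAD1* and *SYT1* were well above background on all 8 arrays and *SYP* on none. Of endothelial markers, *VWF* and *KDR* were so on all 8 and *CDH5* on every G-1 array and 3 DMSO arrays, whereas *PECAM1* and *CLDN5* were so on none. Of epithelial markers, *KRT8*, *KRT19* and *CLDN4* were so on all 8 and *EPCAM* and *CDH1* on none. No marker of the 5 cell type lists passed the limma test between the groups, and 2 astroglial markers and 1 microglial marker had an unadjusted p under 0.05.

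To ask whether the early pattern was still there later, the same contrast was read at 72 h, on 8 other arrays. At 72 h, 21 genes (0.117%) were called with the fold threshold and 146 (0.814%) by adjusted p alone. Of the 38 genes of 24 h, 36 kept their sign at 72 h, 12 passed there, and 32 had a smaller absolute difference. The median absolute difference of the 38 was 0.69 at 24 h, by which they were chosen, and 0.38 at 72 h. The exceptions to the sign were *ACACA* and *SLC6A9*, at −0.01 and −0.07.

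The effects on *SREBF1* and *ACACA* differed between durations (2 genes, 0.0112% of those tested). At 72 h, *SREBF1* read 7.26, 7.42, 7.27 and 7.50 under DMSO and 7.50, 7.57, 7.41 and 7.67 under G-1, a difference of 0.17 (adjusted p = 0.607). The effect at 72 h was thus below that at 24 h by −0.85 on the log2 scale (SE 0.13, limma adjusted p = 0.0162 for the difference of the effects). *ACACA* read 6.44, 6.49, 6.37 and 6.49 under DMSO and 6.36, 6.47, 6.42 and 6.49 under G-1 at 72 h, and its effects differed by −0.67 (SE 0.09, limma adjusted p = 0.00969). *FASN* was at 1.16 at 24 h and 0.12 at 72 h, but this difference of −1.04 did not pass (SE 0.26, adjusted p = 0.415). Without DMSO replicate 2, G-1 replicate 2 or G-1 replicate 3, 1 of the 2 genes passed. Neither passed when arrays were scaled to their median or when no filter on dim probes was used, and no effect differed by more than 2-fold between durations after adjustment, against 59 probes at an unadjusted p under 0.05.

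*CPT1A*, *PDK4* and *ACAA2* lay farther from 0 at 72 h than at 24 h. *CPT1A* was at 0.69 at 24 h and 0.82 at 72 h (adjusted p = 1.56e-07 at 72 h), where it read 3.47, 3.40, 3.52 and 3.43 under DMSO and 4.32, 4.23, 4.31 and 4.23 under G-1. *ANGPTL4* was at 6.07 at 72 h (adjusted p = 7.24e-07), and *PDK4* at 1.82 (adjusted p = 0.000149). *ACAA2* was at 0.61 (adjusted p = 0.000775). Outside fatty acid use, *IMPA2* was at 0.72 (adjusted p = 7.24e-07). The differences between durations were 0.77 for *PDK4* (SE 0.32) and 0.13 for *CPT1A* (SE 0.08), neither passing (adjusted p = 1 for both). None is given for *ANGPTL4*, whose DMSO level at 24 h is only a bound. At 72 h it read −3.64 and −3.24 on DMSO replicates 3 and 4. These lay below the lowest signal well above background on the same arrays (−3.28 and −3.16), so that its difference of 6.07 is not exact. The medians of the sterol synthesis, fatty acid synthesis and tubulin lists were 0.17, 0.00 and −0.07 at 72 h.

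**Figure D5:**
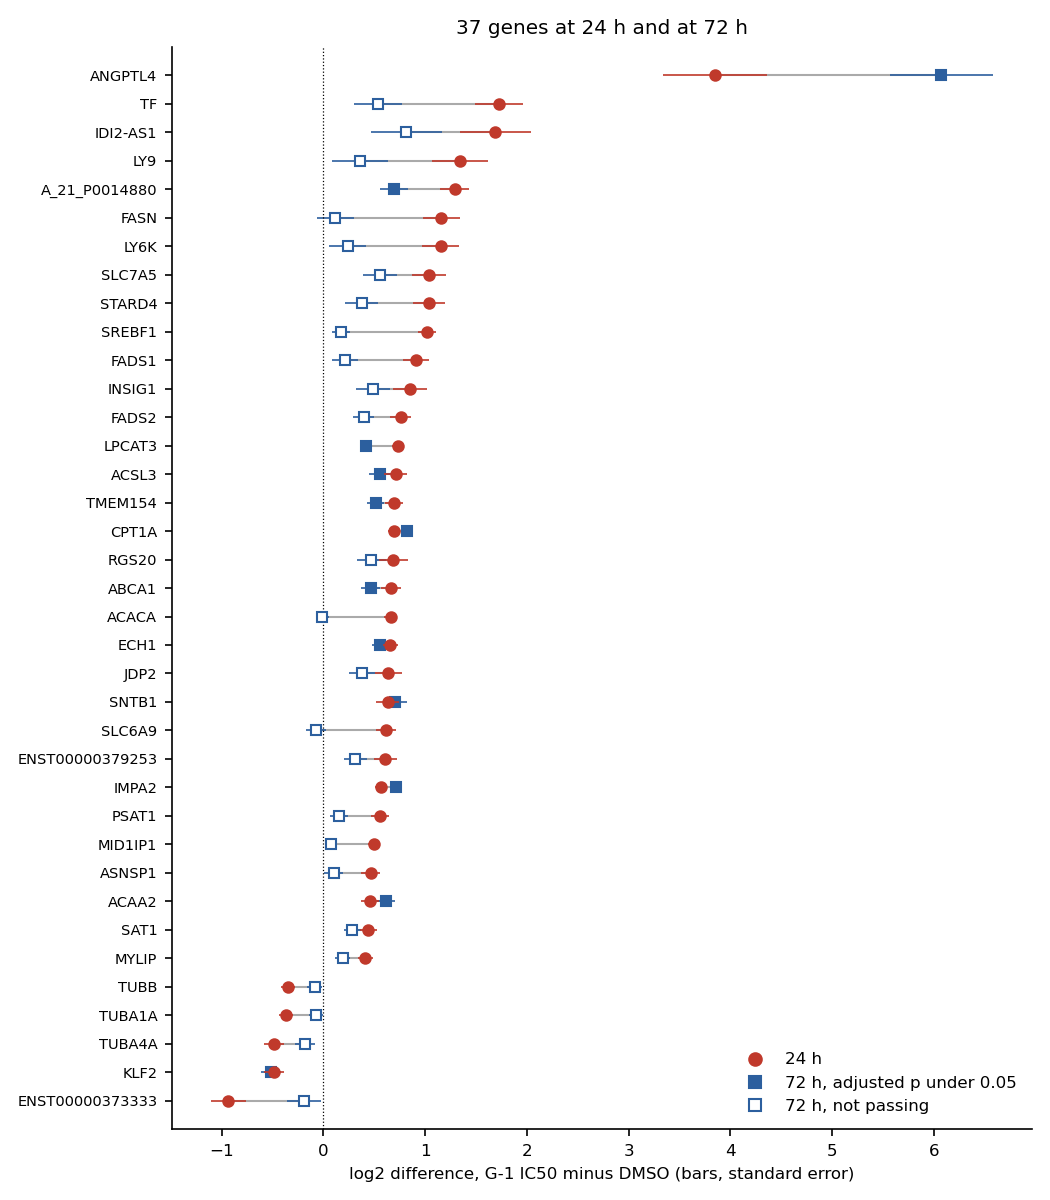
Log2 difference between G-1 IC50 and DMSO for 37 of the 38 genes at adjusted p under 0.05 at 24 h (rows), with red circles for 24 h and blue squares for 72 h, filled where the 72 h difference passed adjusted p under 0.05; bars are the standard error and grey lines join both durations. The 72 h symbol lies nearer to 0 in 31 of the 37 genes, and *CPT1A* and *IMPA2* are among the 6 for which it lies farther. For *ANGPTL4*, the DMSO level was at background at 24 h, and at 72 h it was so on DMSO replicates 3 and 4.

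The higher dose, 1 µM, was measured at 24 h against the same 4 DMSO arrays, so that the comparisons are not independent, and its arrays lay on another slide from another scanning session, so that dose and session cannot be told apart. With 1 µM, 601 genes (3.35%) were called with the fold threshold. At IC50 and at 1 µM, the log2 differences were 3.85 and 5.24 for *ANGPTL4*, both against a DMSO level at background, 1.02 and 0.85 for *SREBF1* and 1.16 and 1.39 for *FASN*. They were 0.74 and 0.78 for *LPCAT3*, 0.69 and 0.69 for *CPT1A*, 1.04 and 1.37 for *SLC7A5*, and −0.48 and −0.80 for *TUBA4A*. For the mitotic kinase genes *AURKA* and *PLK1* they were −0.04 and 1.18, and 0.11 and 1.09, and the ERK response list had medians of 0.09 and 0.85.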

How the data were processed

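RNA of 24 U251 cultures (6 groups of 4) was hybridised in 1 color to Agilent arrays. The authors deposited Feature Extraction files (10.7.3.1 in the labels, 12.1.1.1 in the file headers) with background-corrected intensity per spot, and a log2 table scaled to the 75th percentile. Recomputed values differed from the deposited log2 table by at most 0.0106. The annotation of the array design was used for names. The deposited tables held 0 columns of other samples.

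Here, log2 processed intensity minus the 75th percentile of each array was taken, spots flagged as outliers were left out and spots of a probe were averaged, leaving 58118 probes. Probes had to be well above background on every array of 1 or more groups, and the 22970 that met this were fitted in limma 3.58.1 (R 4.3.3) with 6 group means over 24 arrays, eBayes and Benjamini-Hochberg adjustment. A called gene had any probe at adjusted p under 0.05, with an absolute fold change above 2 where stated. Otherwise a gene was represented by its brightest probe over all arrays. The number of arrays limits the precision. The fit was tested on simulated data.

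Genes were named if called, if at adjusted p under 0.05, if among the 10 largest differences in each direction without overlap, or if on 21 gene lists and 5 marker lists. The comparison, members and lists were chosen with earlier results of these data known. Slides and scanning sessions were read from the file headers. Replicate numbers were not used as pairs. Some genes that enter the counts are not reported here by name. Alternatives covered normalization (quantile, 50th percentile, normexp with an offset of 50, the deposited table), filters, arrays in the fit, an intensity trend, blocks, the methods' t-test and leaving out each array. Blocks within each duration and blocks within the 8 arrays were added after seeing the data. Python 3.11.15 was used for tables and figures.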

Additional observations from a re-analysis of the deposited data

Results flagged for a closer look

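Of 76 sets of 4 replicate values of the genes described, 3 held an array far from the other 3 by Dixon's test, and chance alone marks about 1 in 20 such sets. For *LPCAT3*, DMSO replicate 1 was the lowest at 4.67 (ratio 0.906) in a group with an SD of 0.03. For *LY6K*, DMSO replicate 3 was the highest at −1.71 (ratio 0.923). For *STARD4*, the same DMSO replicate 3 was the highest at 1.90 (ratio 0.918). In each of the 3 genes the groups did not overlap with that array included, and the call held when it was left out.

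The effect of G-1 IC50 differed between durations for 2 genes. For *SREBF1*, the log2 difference at 72 h minus that at 24 h was −0.85 (SE 0.13, limma adjusted p = 0.0162). For *ACACA*, it was −0.67 (SE 0.09, limma adjusted p = 0.00969).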

How the results depend on the processing

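Of 65 single genes followed in up to 25 settings, 0 changed direction. These genes were chosen with their differences on the same arrays known, so that this count is no further support. Of 38 genes at adjusted p under 0.05, 22 passed by their brightest probe with every array left out in turn. The count of called genes (10) was 4 with normexp, 2 with the 8 arrays alone, 20 with the methods' t-test unadjusted and 0 after Benjamini-Hochberg adjustment. It ranged from 4 to 11 with 1 array left out. The count at adjusted p under 0.05 (38) was 22 without a filter, 6 with the 8 arrays alone, and 954 and 4 with the methods' t-test before and after adjustment, and ranged from 22 to 42 with 1 array left out. With the replicate number as a block it was 80, within each duration 123, and with the 8 arrays alone 0, as was the count of called genes. The sterol enzymes *LSS*, *MVD*, *FDPS*, *FDFT1* and *DHCR7* passed with that block (adjusted p = 0.000494 to 0.00391). With a slide block and the 8 arrays alone, they were 2 and 4. The numbers gave same-number correlations of 0.21, −0.11, 0.39 and 0.19. Since 0 of 4 G-1 arrays correlated best with their own number, the numbers were not taken as pairs. Some lists followed the number in both groups. For sterol synthesis, replicates 3 and 4 had higher medians than replicates 1 and 2 under both treatments. For glycolysis and hypoxia they had lower ones. The interferon list did not, at −0.43, −0.30, −0.20 and 0.10 under G-1 and 0.19, −0.43, 0.26 and 0.01 under DMSO. Whether cultures of the same number belong together was not tested further. All 38 genes kept their call when the number was blocked over the 24 arrays. Genes differing between durations (2) were 0 with the 50th percentile or without a filter, 6 with normexp, with probes well above background on all 24 arrays or with an intensity trend, 5 with 16 arrays (1 µM left out) or a slide block, 10 with the replicate block and 25 with it within each duration. Past 2-fold (0), they were 2 with normexp or a slide block, 3 with probes above background on all arrays, 16 arrays or a trend, and 5 and 8 with the replicate blocks. They ranged from 1 to 2, and from 0 to 0 past 2-fold, with 1 array left out. Genes without overlap (393) ranged from 588 to 1188 with 1 array left out, since 3 arrays separate more easily. With the 50th percentile, list medians were 0.39 (SREBP control), 0.23 (LXR), 0.23 (PPAR), 0.0071 (chaperones), 0.14 (iron), 0.0653 (p53), 0.0714 (ribosome), 0.22 (NRF2) and 0.0659 (housekeeping), where all genes shifted by 0.09. Without a filter, those of SREBP control and PPAR were 0.19 and 0.0486, and the latter was 0.0486 also with probes above background on all 24 arrays. SREBP control was 0.19 with normexp and ranged from 0.20 to 0.33 with 1 array left out, and LXR from 0.0056 to 0.22. The cause of these changes was not tested. Dim probes near background, such as *ANGPTL4* under DMSO, limit what a fold can say.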

Other observations

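Genes of glycolysis and hypoxia lay above 0 in 14 of 15 cases with a median of 0.22, 0 passing limma and 2 at an unadjusted p under 0.05. *CA9*, *ADM* and *VEGFA* differed by 0.55, 0.49 and 0.47, and *LDHA* by −0.00. The list median was 0.31 within the first slide and 0.09 within the second, and by array it was 0.49, 0.53, 0.03 and 0.03 on the G-1 arrays and 0.17, 0.17, −0.19 and −0.11 on the DMSO arrays.

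Interferon response genes lay below 0 in 13 of 14 cases with a median of −0.20, 0 passing and 1 at an unadjusted p under 0.05. The median was −0.38 within the first slide and 0.22 within the second. *IFIT1* and *MX1*, antiviral effectors, differed by −0.46 and −0.42, and *IFIT1* by −0.80 and 0.30 within the slides.

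*FABP7*, a fatty acid-binding protein of radial glia and glioma cells, read 5.12, 5.60, 5.72 and 5.82 under DMSO and 6.10, 6.23, 6.88 and 6.88 under G-1 (log2 difference 0.96, limma adjusted p = 0.065). The largest differences below 0 without overlap that did not pass were *PTPRH* at −0.57, *RAPGEF4* at −0.55, *FBXO43* at −0.55 and *IGSF5* at −0.52. *PTPRH*, a receptor tyrosine phosphatase, read −1.02, −1.50, −0.99 and −1.16 under DMSO and −1.51, −1.81, −2.03 and −1.58 under G-1 (adjusted p = 0.456).

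Of 1230 long non-coding RNA genes tested, 1 rose (*IDI2-AS1*) and none fell, and of 166 small nucleolar RNA genes none passed. In 15 of the long non-coding RNA genes the G-1 arrays lay above all DMSO arrays and in 18 below, or 2.68% in all, beside 2.79% of 12516 protein-coding genes.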
